A study of Rattus norvegicus with 16 samples.

Results

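Complement is the set of plasma proteins, regulators and receptors by which antibodies, lectins or foreign surfaces trigger a cascade of proteases that marks, lyses and draws leukocytes to microbes. The data here are the liver mRNA levels of 38 genes of this system, chosen by name and role. Their measured values were not the criterion, although earlier results of these data were known when they were chosen. They comprise 8 classical, 7 lectin, 4 central and alternative and 7 terminal pathway genes, 9 regulators and 3 receptors. Of the 38, 33 were among the 17055 gene symbols of the files, and C5, C7, Fcna, Colec11 and C5ar2 are not analysed here. Between 30 and 31 of the 33 had enough reads to be tested in a given comparison, because Mbl2 (0 to 7 reads per library) and Cd55 were too low throughout and Fcnb was too low in some.

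Liver RNA came from 48 male Sprague-Dawley rats, 10 weeks old, in 4 groups of 12. In the Isoflurane-Sepsis and Isoflurane-Control groups anesthesia was induced and maintained with isoflurane. In the Propofol-Sepsis and Propofol-Control groups it was induced with ketamine-xylazine and maintained with Propofol, and all 4 groups breathed pure oxygen. Sepsis was cecal ligation and puncture, in which the tied and pierced cecum leaks into the abdomen. Controls had a celiotomy in which the cecum was lifted out and put back, so they too had surgery, and livers were taken 8 h after celiotomy. Each library was made from the combined liver tissue of 3 rats, giving 4 libraries per group, so the spread below is between pools and not between single rats. The Isoflurane-Sepsis libraries carried the numbers 1 to 4 and their Isoflurane-Control libraries 5 to 8. Numbers 9 to 12 belonged to Propofol-Sepsis, with 13 to 16 as its Propofol-Control libraries.

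The liver, through its hepatocytes, makes most of the complement proteins in blood, while the subunits of C1q and the receptors for the fragments C3a and C5a are made largely by macrophages and other leukocytes. Antibody-bound C1q activates C1r and C1s, and mannose-binding lectin activates the Masp proteases. Both routes cleave C4 and C2 and then C3, factors B and D amplify that step, and C5 to C9 assemble a pore in the target membrane. Several of these proteins belong to the acute phase response of the liver.

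Library depth was 14199422 to 49937173 reads on genes. Reads on the members made up 3.638% to 5.129% of them, and C3 alone held 49.24% to 60.49% of the members' reads. A share of reads also depends on transcript length, which was not available, so levels are compared between groups and not between genes. All 10 hepatocyte markers had reads in every library, with Alb (albumin) at 54360 to 93960 CPM. CPM is a gene's count scaled to a common library size, after trimmed mean (TMM) scaling over all 16 libraries. Library 4 stood apart from the other Isoflurane-Sepsis libraries in C9, Cfb, C1qb and Cd55, and for C9 the value without it is also given. A change was called when the adjusted p of edgeR's quasi-likelihood test was below 0.05, the adjustment being over all genes tested.

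In rats anesthetized with isoflurane, C9, Serping1, Clu, Vtn, C1qa, Cfd and both anaphylatoxin receptor genes were higher in sepsis, while C4a, C4b, Masp1, Masp2, C8a and Cd59 were lower. This was 8 of 30 tested members called higher, beside 25.7% of all 10361 genes tested, and 6 called lower, beside 24.4%. Counts of this size were close to the share of all genes, so the count by itself does not set complement apart. In rats anesthetized with Propofol, C9 and Serping1 were higher, and C4a, C4b, C2, C8g, Cfi and Masp1 were lower. There 2 of 31 members were called higher, beside 20.4% of all genes, and 6 were called lower, beside 21.7%. The median log2 fold change of the tested members was 0.12 with isoflurane and -0.10 with Propofol, beside 0.006 and -0.002 over all genes. The called changes were modest, none exceeding 1 on the log2 scale. Scaling by library totals changed the isoflurane count to 5 higher and 9 lower, beside 2240 of all genes higher and 2964 lower.

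**Figure D1:**
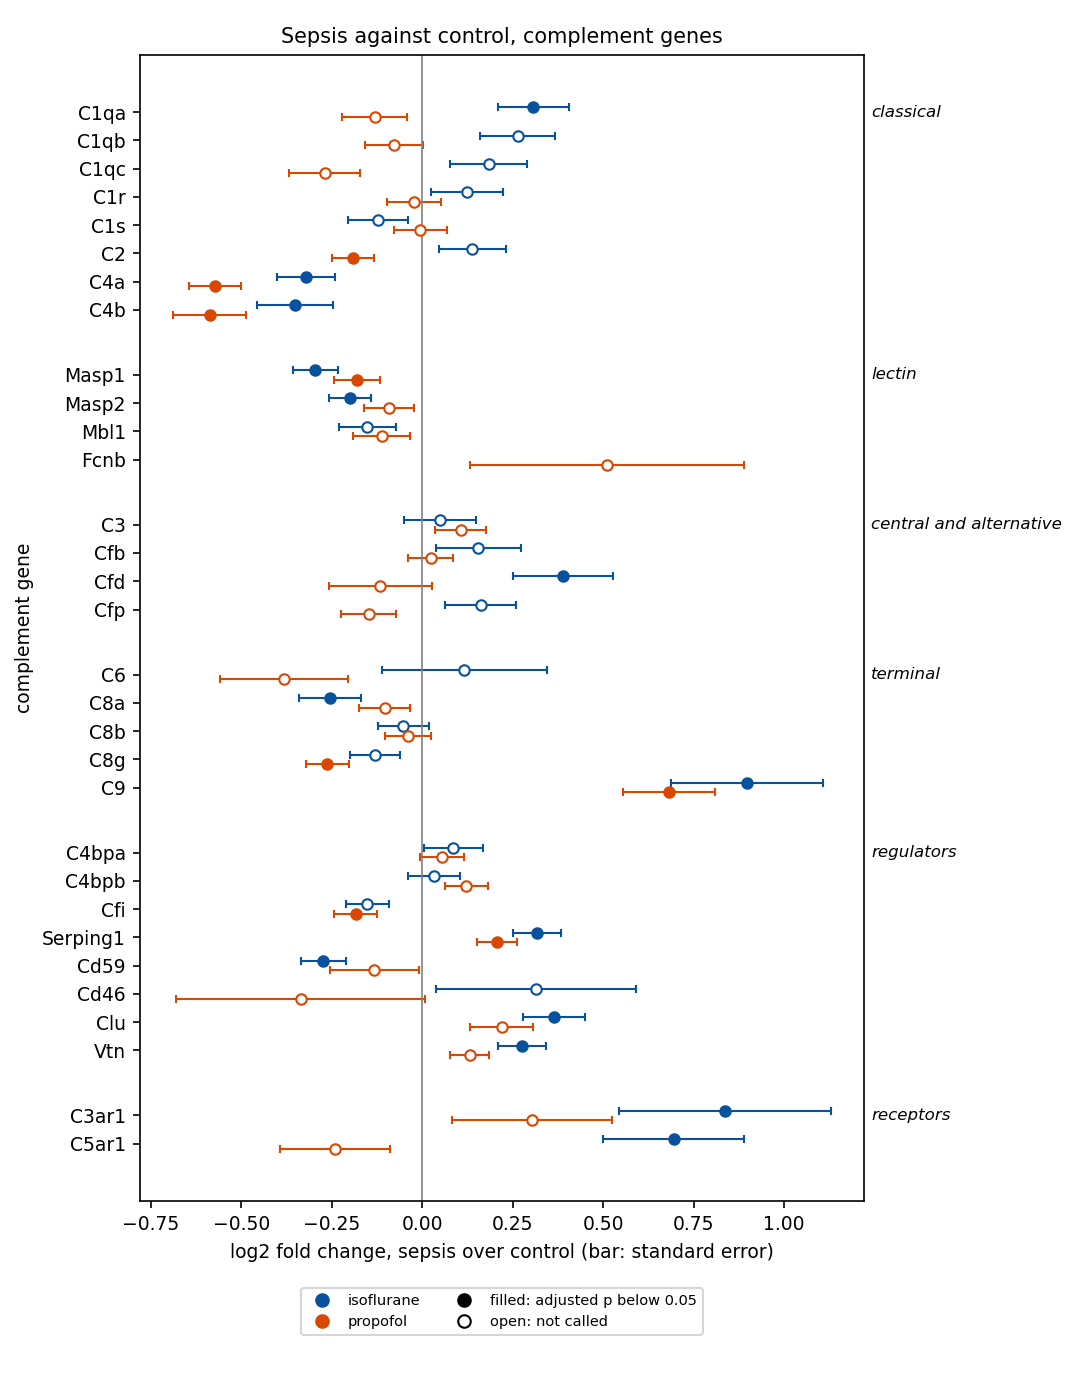
Log2 fold change of sepsis over control (horizontal axis) for each tested complement gene (vertical axis), grouped by role, with isoflurane in blue and Propofol in orange. Bars are standard errors of the edgeR fit over 4 libraries against 4, and filled points passed an adjusted p of 0.05. C9 lies farthest to the right with both anesthetics, at 0.90 and 0.68, and C4a and C4b lie to the left with both.

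C4, cleaved by C1s or Masp2 on the way to the C3 convertase, was the part of the classical pathway whose mRNA was called lower with both anesthetics. C4a was 636, 646, 713 and 676 CPM in Isoflurane-Control libraries 5 to 8 and at 565, 496, 487 and 587 in Isoflurane-Sepsis libraries 1 to 4. In the Propofol rats it was 785, 751, 778 and 810 CPM in control libraries 13 to 16 and 581, 468.97, 546 and 512 in sepsis libraries 9 to 12. Every sepsis library lay below every control library of its anesthetic. C4a fell by 0.32 ± 0.08 (SE, n = 4 and 4) on the log2 scale with isoflurane (adjusted p = 0.00997) and by 0.57 ± 0.07 with Propofol (adjusted p = 0.000294). Its near copy C4b was 32.7, 31.6, 34.6 and 34.1 CPM in Isoflurane-Control and 31.7, 24.3, 25.7 and 22.4 in Isoflurane-Sepsis, and 41.6, 38.9, 40.1 and 42.8 in Propofol-Control and 31.5, 22.7, 29.9 and 25.4 in Propofol-Sepsis. C4b was called lower with both, by 0.35 ± 0.10 (adjusted p = 0.0209) and 0.59 ± 0.10 (adjusted p = 0.00142) on the log2 scale, although library 1 lay just above control library 6 and the isoflurane call was lost without library 2, 7 or 8. The sources used here do not say how reads shared by the copies were counted, and the division between C4a and C4b is uncertain.

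The promoters of C4a and C4b, the pair called lower with both anesthetics, are shown to compare the sequence upstream of the copies. The transcripts themselves were not compared. The 250 bases before each start, 5′ to 3′, are from RefSeq on build GRCr8, chr20:4010107-4010356 for C4a and chr20:4201729-4201978 for C4b, both on the plus strand. Capitals mark bases with no identical partner in the alignment of the pair.
C4a: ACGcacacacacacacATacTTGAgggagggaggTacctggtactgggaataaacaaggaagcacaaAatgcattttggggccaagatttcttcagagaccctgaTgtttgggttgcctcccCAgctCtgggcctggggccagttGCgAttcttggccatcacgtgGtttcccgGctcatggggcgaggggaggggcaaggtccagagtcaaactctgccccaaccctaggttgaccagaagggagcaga
C4b: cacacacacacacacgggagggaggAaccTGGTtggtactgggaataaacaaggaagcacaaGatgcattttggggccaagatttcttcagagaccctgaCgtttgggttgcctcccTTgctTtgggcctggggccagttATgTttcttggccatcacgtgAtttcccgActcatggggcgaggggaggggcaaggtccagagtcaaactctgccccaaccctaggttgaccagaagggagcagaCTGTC
The alignment held 230 identical bases, 11 mismatches and 18 gap columns, or 88.8% identity.

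The product of the C1q subunit genes opens the classical pathway. C1qa was 51.5, 53.1, 52.2 and 44.0 CPM in Isoflurane-Control libraries and 56.2, 57.2, 64.7 and 69.6 in Isoflurane-Sepsis libraries, which lay above all controls. That rise was 0.31 ± 0.10 on the log2 scale (adjusted p = 0.0274), and it was not called when libraries 3, 4, 5 or 8 were left out in turn or with scaling by library totals. C1qb (0.26, adjusted p = 0.0619) and C1qc (0.18, adjusted p = 0.179) did not pass the test. C1qb was called higher with DESeq2, in the single fit of all libraries and without library 1. With Propofol the values were -0.13 for C1qa, -0.08 for C1qb and -0.27 for C1qc, none called. C1qc had an adjusted p of 0.0501 and was called lower with DESeq2, with scaling by library totals, with a mean CPM of at least 1 and without library 12 or 15. C1r and C1s, the proteases of the C1 complex, had values between -0.12 and 0.12 in both comparisons and were not called. C2, the serine protease that joins C4b, was 183, 200, 185 and 182 CPM in Propofol-Control and 169, 163, 169 and 159 in Propofol-Sepsis. All Propofol-Sepsis libraries were below the controls, a fall of 0.19 ± 0.06 (adjusted p = 0.0236) that was not called without library 12 or 14 or in a single fit of all libraries, while with isoflurane C2 was 0.14 ± 0.09 (adjusted p = 0.241).

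Of the lectin pathway proteases, Masp1 was called lower with both anesthetics and Masp2 with isoflurane. Masp1, whose product activates Masp2, was 255, 241, 255 and 248 CPM in Isoflurane-Control and 216, 202, 200 and 195 in Isoflurane-Sepsis. With Propofol it was 225, 256, 226 and 229 CPM in controls and 210, 200, 213 and 207 in sepsis. The sepsis libraries were below the controls with both anesthetics. Masp1 fell by 0.30 ± 0.06 with isoflurane (adjusted p = 0.00481) and by 0.18 ± 0.06 with Propofol (adjusted p = 0.0438), and the Propofol call was lost without library 9, 10, 11, 12, 13, 14 or 16 and with no limit on low counts. Masp2, the protease that cleaves C4 and C2, fell by 0.20 ± 0.06 with isoflurane (adjusted p = 0.0195, lost without library 5, 7 or 8) and was -0.09 with Propofol (adjusted p = 0.302). Mbl1, a mannose-binding lectin, was not called in either, at -0.15 and -0.11. With isoflurane it was called lower with scaling by library totals and without library 4. Fcnb, a ficolin, had 0.198 to 0.333 CPM in Isoflurane-Control and 0.349 to 1.09 in Isoflurane-Sepsis, and was 0.51 ± 0.38 with Propofol (adjusted p = 0.300). It was not tested with isoflurane under the count limit, and with no limit on low counts it was 1.5 (adjusted p = 0.0124). It was also called higher in the single fit of all libraries and without library 1, 5, 6, 7 or 8. In those fits Fcnb met the count limit through libraries outside Isoflurane-Control, which had 4 to 16 reads each. These calls are therefore not separate support.

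C3, on which all routes converge, did not pass the test with either anesthetic, but was called higher with Propofol without library 10. It averaged 22960 ± 612 CPM (SD, n = 4) in Isoflurane-Control and 23750 ± 3700 in Isoflurane-Sepsis, and 25440 ± 871 and 27490 ± 2720 with Propofol. Factor B (Cfb) was 0.16 with isoflurane, with library 4 at 2694 CPM against 1849 to 1944 in libraries 1 to 3, and 0.02 with Propofol. Cfd, encoding the factor D protease that cleaves factor B, was 8.56, 9.70, 8.59 and 7.50 CPM in Isoflurane-Control and 10.2, 9.15, 13 and 12.3 in Isoflurane-Sepsis, so that library 2 fell within the control range. In Propofol-Control it was 8.82, 9.49, 6.19 and 8.35 CPM and in Propofol-Sepsis 6.49, 7.87, 7.91 and 8.06, and these groups overlapped. Cfd rose by 0.39 ± 0.14 with isoflurane (adjusted p = 0.0418) and the call was lost without library 3, 4, 5, 7 or 8, with scaling by library totals and with no limit on low counts. It was -0.12 ± 0.14 with Propofol. Properdin (Cfp), which stabilizes the alternative convertase, was 28.4, 28.9, 31.1 and 29.0 CPM in Isoflurane-Control and 32.1, 27.6, 33.3 and 38 in Isoflurane-Sepsis. In the Propofol rats it was 36.7, 34.4, 30.6 and 31.8 CPM in controls and 27.9, 30.8, 32.0 and 30.2 in sepsis. Both pairs of groups overlapped, and neither Cfp value passed (0.16 with adjusted p = 0.202, and -0.15 with adjusted p = 0.139).

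C9, which polymerizes into the membrane pore, rose with both anesthetics. It was 1647, 1548, 1535 and 1597 CPM in Isoflurane-Control and 2483, 2214, 2490 and 4584 in Isoflurane-Sepsis. In the Propofol rats it was 1709, 1277, 1816 and 1447 CPM in controls and 2407, 2151, 3030 and 2472 in sepsis. Every sepsis library exceeded every control library, and library 4 exceeded all others. C9 rose by 0.90 ± 0.21 on the log2 scale with isoflurane, or 1.86-fold (adjusted p = 0.00732), and by 0.68 ± 0.13 with Propofol, or 1.60-fold (adjusted p = 0.0023). Without library 4 the isoflurane value was 0.61 (adjusted p = 0.000222), and the call held in every alternative fit with both anesthetics.

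The other terminal genes did not follow C9. C8a fell by 0.25 ± 0.09 with isoflurane (adjusted p = 0.0336, lost without library 2, 3, 5, 6, 7 or 8) and C8g by 0.26 ± 0.06 with Propofol (adjusted p = 0.00644, held in all 14). C8g was 127, 144, 140 and 138 CPM in Propofol-Control and 116, 118, 110 and 117 in Propofol-Sepsis, the sepsis libraries all lying below the controls. With isoflurane C8g was -0.13 ± 0.07 (adjusted p = 0.146) and was not called. Its sepsis libraries there, at 136 to 153 CPM, also lay below the controls, at 154 to 167. It was called lower with isoflurane when scaled by library totals. C8a was -0.10 ± 0.07 with Propofol (adjusted p = 0.259). C8b was -0.05 and -0.04, and C6 was 0.12 and -0.38, neither called, although C6 was called lower with Propofol without library 11. C6 varied widely in sepsis, from 92.0 to 208 CPM in Isoflurane-Sepsis and from 84.6 to 169 in Propofol-Sepsis.

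**Figure D2:**
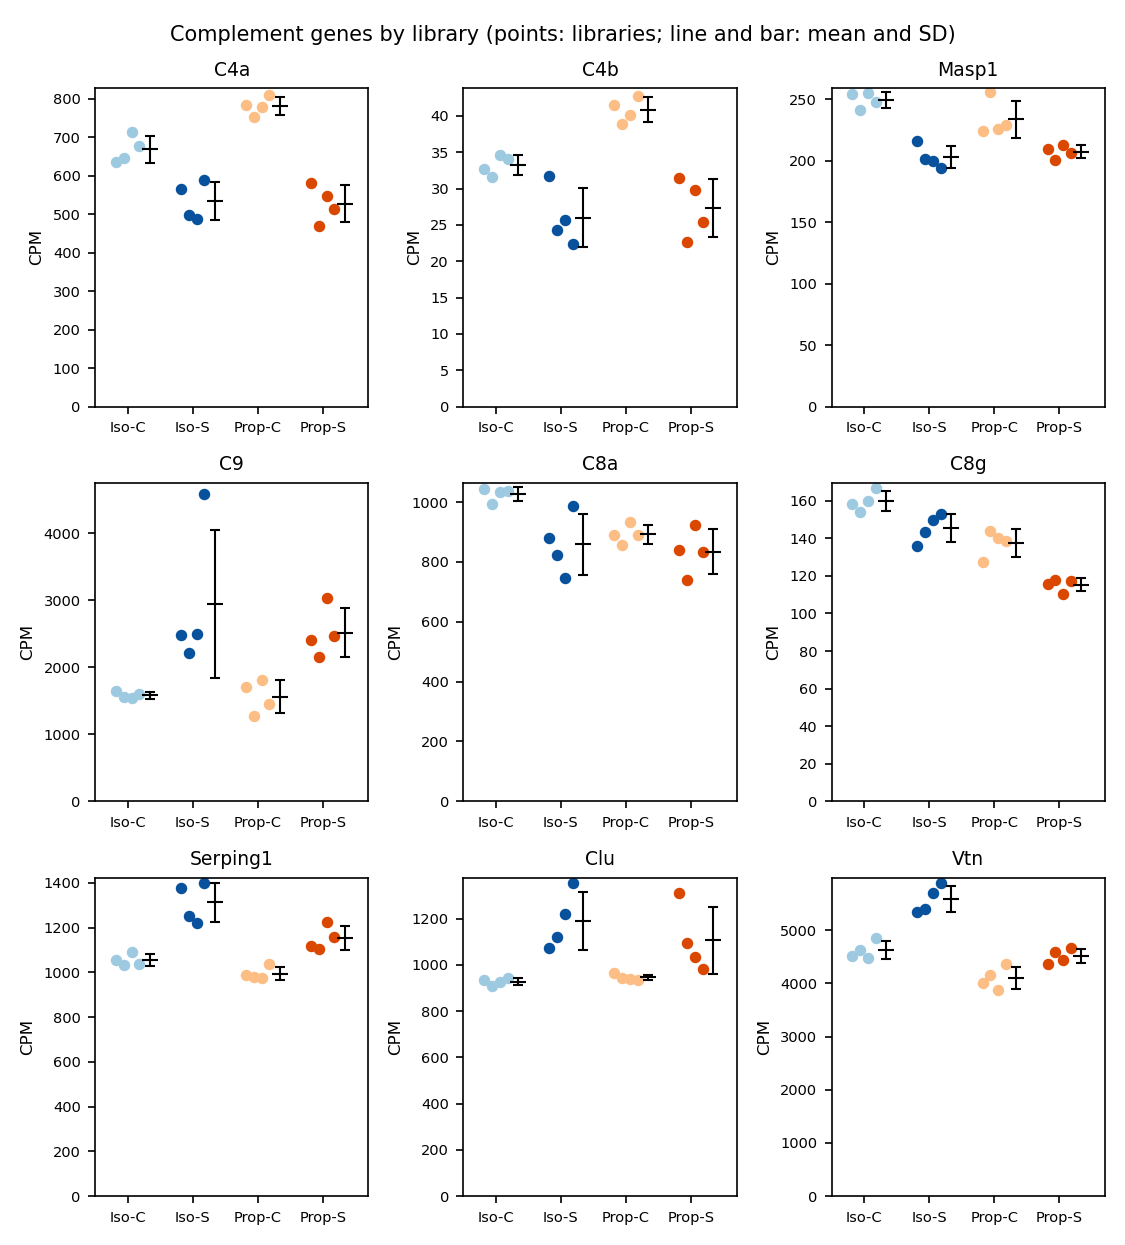
CPM (vertical axes, starting at 0) of 9 complement genes in each library, by group: Isoflurane-Control (Iso-C), Isoflurane-Sepsis (Iso-S), Propofol-Control (Prop-C) and Propofol-Sepsis (Prop-S). Points are libraries, and the black line and bar are the mean and SD of 4. The sepsis points of C4a, Masp1, C9, C8g, Serping1 and Clu do not overlap their controls with either anesthetic. Library 4 is the isolated C9 point at 4584.

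Among the regulators, the secreted Serping1, Clu and Vtn rose with isoflurane and the membrane-bound Cd59 fell. Serping1 encodes the C1 inhibitor, which inactivates C1r, C1s and the Masp proteases. It was 1057, 1032, 1091 and 1037 CPM in Isoflurane-Control and 1378, 1254, 1219 and 1398 in Isoflurane-Sepsis. With Propofol it was 987, 980, 976 and 1037 CPM in controls and 1120, 1107, 1226 and 1160 in sepsis. Sepsis libraries were above the controls in both, by 0.32 ± 0.07 (adjusted p = 0.00449) and 0.21 ± 0.06 (adjusted p = 0.014), and both calls held in all 14 alternative fits. Clusterin (Clu) and vitronectin (Vtn), which bind terminal complexes in the fluid phase, rose with isoflurane by 0.36 ± 0.09 (adjusted p = 0.00755) and 0.28 ± 0.07 (adjusted p = 0.00775). With Propofol they were 0.22 ± 0.09 (adjusted p = 0.0655) and 0.13 ± 0.05 (adjusted p = 0.0791) and did not pass. Clu was called higher there with DESeq2, in the single fit of all libraries and without library 12, and its Propofol groups did not overlap. Vtn was called higher there with DESeq2 and without library 16. Clu ranged from 909 to 942 CPM in Isoflurane-Control and from 1073 to 1355 in Isoflurane-Sepsis, and Vtn from 4477 to 4859 and from 5352 to 5888, without overlap.

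Cd59, whose product blocks the insertion of C9, was 38.6, 36.6, 39.7 and 39.2 CPM in Isoflurane-Control and 33.2, 33.1, 30.1 and 30.9 in Isoflurane-Sepsis. All Isoflurane-Sepsis libraries were lower, a fall of 0.27 ± 0.06 (adjusted p = 0.00702), and with Propofol the value was -0.13 ± 0.12 (adjusted p = 0.408). Cfi, the protease that degrades C3b and C4b, fell by 0.18 ± 0.06 with Propofol (adjusted p = 0.0329, lost without library 11, 12, 13, 14 or 16) and was -0.15 ± 0.06 with isoflurane (adjusted p = 0.0623). With isoflurane it was called lower with DESeq2, with scaling by library totals, in the single fit of all libraries and without library 4. The subunits of C4b-binding protein were not called, with C4bpa at 0.09 and 0.05 and C4bpb at 0.03 and 0.12. Cd46, a membrane cofactor for Cfi, lay at 0.321 to 1.04 CPM over all libraries and was not called. Cd55, which dissociates C3 convertases, had 0.0495 to 0.188 CPM in Isoflurane-Control and 0.449, 0.515, 0.622 and 1.51 in Isoflurane-Sepsis, from 1 to 6 reads and from 8 to 25 reads per library. With no limit on low counts it was 2.63 ± 0.52 with isoflurane (adjusted p = 0.00329) and 0.81 ± 0.56 with Propofol (adjusted p = 0.304).

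The receptors for the anaphylatoxins C5a and C3a, carried mainly by leukocytes, were at low levels. C5ar1 was 1.69, 1.88, 2.46 and 2.10 CPM in Isoflurane-Control and 2.99, 2.45, 3.63 and 4.11 in Isoflurane-Sepsis. In the Propofol rats it was 3.15, 3.26, 2.76 and 3.31 CPM in controls and 2.20, 2.93, 2.89 and 2.58 in sepsis. Library 2 reached only the top of the control range, and the Propofol groups overlapped. C5ar1 rose by 0.70 ± 0.20 with isoflurane, or 1.62-fold (adjusted p = 0.0164, held in all 14 alternative fits, while the exact permutation test over the 8 libraries gave p = 0.0571). With Propofol it was -0.24 ± 0.15 (adjusted p = 0.226). C3ar1 was 0.893, 0.594, 0.836 and 0.667 CPM in Isoflurane-Control and 1.65, 0.644, 1.55 and 1.39 in Isoflurane-Sepsis, with library 2 inside the control range. It rose by 0.84 ± 0.29 (adjusted p = 0.0397), a call lost without any of libraries 1, 3, 4, 5, 6, 7 or 8, with scaling by library totals and with no limit on low counts, and with Propofol was 0.30 ± 0.22 (adjusted p = 0.295).

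Because the receptors and C1q are leukocyte genes, marker genes of those cells are given beside them. In bulk liver, a change in the number of a cell type and a change in RNA per cell cannot be told apart. Of 11 neutrophil and monocyte markers, 9 were present and 7 tested. Of the 7, 5 were called higher with isoflurane and 4 with Propofol, beside 25.7% and 20.4% of all genes. The summed level of the 9 was 17.7 to 19.7 CPM in Isoflurane-Control and 31.2 to 109 in Isoflurane-Sepsis. With Propofol it was 17.7 to 25.4 CPM in controls and 32.7 to 47.6 in sepsis. Mpo and Fpr1 were at or near 0, with at most 2 and 4 reads in a library, and Fpr2 and Ccr2 were not analysed here. Of 10 Kupffer cell and macrophage markers 8 were tested, 6 being called higher and 2 lower with isoflurane, and 3 higher and 2 lower with Propofol. The shares of all genes higher and lower were 25.7% and 24.4% with isoflurane and 20.4% and 21.7% with Propofol. Sums of these 8 markers were 330 to 419 CPM in Isoflurane-Control and 373 to 502 in Isoflurane-Sepsis. In Propofol-Control they were 393 to 461 and in Propofol-Sepsis 382 to 462. Clec4f, which defines Kupffer cells, fell with both anesthetics (-0.60 and -0.82), and Csf1r rose with isoflurane (0.60). The part of these cells in the receptor and C1q values was not tested.

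Hepatocytes make most of the complement proteins of plasma. Of 10 hepatocyte markers 3 were called lower with isoflurane (Alb, Apoa1 and Ass1), beside 24.4% of all genes. The summed levels were 125200 to 135600 CPM in Isoflurane-Control and 103800 to 116700 in Isoflurane-Sepsis, which did not overlap. Alb, at 54360 to 93960 CPM over all libraries, was the largest part of the sums, so they weigh Alb above the other markers. With Propofol 1 was called higher (Pck1) and 1 lower (Apoa1), beside 20.4% and 21.7% of all genes. The sums there overlapped, at 88320 to 99100 in Propofol-Control and 80490 to 93180 in Propofol-Sepsis. The part of hepatocytes in the sepsis values of the members was not tested.

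**Figure D3:**
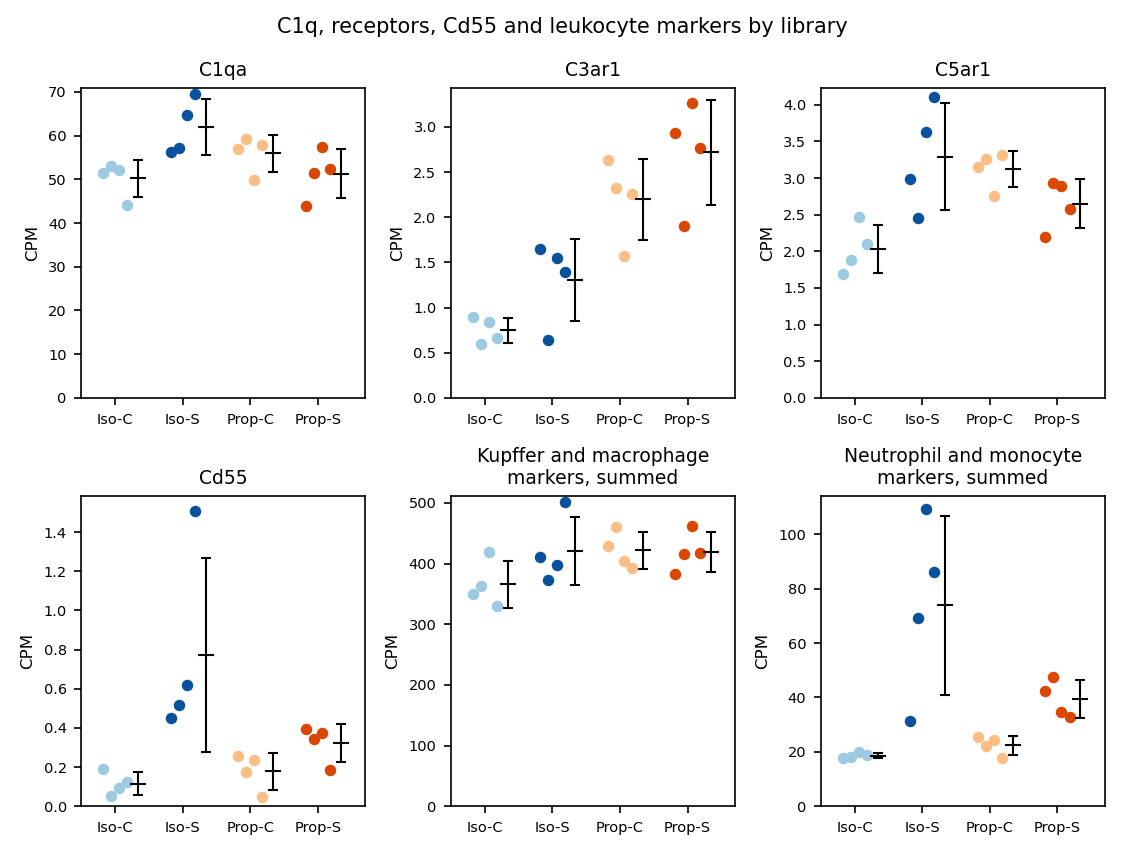
CPM (vertical axes, starting at 0) by library of C1qa, C3ar1, C5ar1 and Cd55, and of the summed Kupffer and macrophage markers and neutrophil and monocyte markers, in the same 4 groups. Points are libraries, and the black line and bar are the mean and SD of 4. The C3ar1 points of Isoflurane-Control lie below all Propofol points, and the neutrophil sums spread from 31.2 to 109 in Isoflurane-Sepsis.

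Promoters were planned for the members with the largest called rises in sepsis. Of C9, C3ar1 and C5ar1, only C3ar1 had a promoter in the source used. The C3ar1 promoter was also 1 of 2 member promoters with the letters searched for NF-kB, a factor active in inflamed leukocytes. It is chr4:157756531-157756780 on the minus strand of GRCr8 (RefSeq), the 250 bases before the start, 5′ to 3′, with the match in capitals, 64 to 56 bases before the start.
C3ar1: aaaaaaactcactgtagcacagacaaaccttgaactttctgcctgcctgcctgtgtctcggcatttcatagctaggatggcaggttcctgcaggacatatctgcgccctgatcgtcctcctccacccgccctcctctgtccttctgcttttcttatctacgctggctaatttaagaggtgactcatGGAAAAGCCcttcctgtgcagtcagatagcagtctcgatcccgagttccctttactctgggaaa
Promoters were found for 22 of the 33 members, and C9 and C5ar1 were not among them. GGNNTTTCC, for NF-kB, was found on either strand in 9.09% of the 22 (C3ar1 and Cfi), beside 5.19% of all 33469 promoters of the table. TTGCNNAA, for C/EBP, was in 31.8% (C6, Fcnb, C1r, C8b, C8a, C3 and C4bpa), beside 9.22%. TTCNNNGAA, for STAT, was in 18.2% (C8a, C1qa, Vtn and C4bpb), beside 7.67%, and GAAANNGAA, for interferon response elements, was in Vtn alone, beside 8.12%. Of the 4 genes with the STAT letters, C8a fell with isoflurane, C1qa and Vtn rose and C4bpb did not pass the test. A match is a run of letters and does not show binding.

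An interaction term in a fit of all 16 libraries, isoflurane minus Propofol, tested whether the response to sepsis differed between the anesthetics. None of 31 members was called by edgeR, beside 1.66% of all genes higher and 1.06% lower. An unadjusted p below 0.05 was found for 8 members, beside 2451 of all 10621 genes tested. DESeq2 called 3 members, beside 504 of all genes higher and 339 lower. The members nearest the threshold were C5ar1 (0.93 ± 0.24, adjusted p = 0.0518), C1qa (0.43 ± 0.13, adjusted p = 0.0813) and C2 (0.32 ± 0.10, adjusted p = 0.0902), which are the genes DESeq2 called. Without library 1 edgeR called the same 3, beside 865 of all genes higher and 750 lower. Without library 2 or library 10 it called C5ar1, beside 134 and 243 of all genes higher and 77 and 155 lower. For C9 the interaction was 0.21 ± 0.26 (adjusted p = 0.646) and for Serping1 0.10 ± 0.08 (adjusted p = 0.457), so a difference between the anesthetics was not shown for either. For C4a it was 0.24 ± 0.11 (adjusted p = 0.198). The members called under a single anesthetic, such as Clu, Vtn, Cd59, C8a and C8g, are likewise not shown to respond differently.

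Anesthetic, induction drug and run name in the deposited files go together, so direct comparisons of isoflurane with Propofol cannot tell them apart. They also share libraries with the sepsis comparisons. In control livers, 6 of 30 members were higher with isoflurane, beside 21.6% of all genes, and 7 were lower, beside 21.7%. C3ar1 was 2.64, 2.33, 1.57 and 2.26 CPM in Propofol-Control, so that all 4 Isoflurane-Control libraries lay below it. The difference was -1.56 ± 0.21 on the log2 scale, or 2.94-fold lower (adjusted p = 0.000246). C5ar1 (-0.61 ± 0.14), C4a (-0.23 ± 0.05), C4b (-0.30 ± 0.05), C6 (-0.38 ± 0.06), C3 (-0.15 ± 0.04) and Cfp (-0.18 ± 0.07) were also lower. Cfi was higher with isoflurane by 0.37 ± 0.04 (adjusted p = 0.000106), at 962 to 986 CPM against 718 to 777. Cd59, C8g, C8a, Vtn and C1s were higher by 0.17 to 0.22. With scaling by library totals, the median of all genes moved to -0.145, with 1139 genes called higher and 3824 lower. There 1 member was called higher and 11 lower, Cd59, C8g, C8a, Vtn and C1s no longer passing. Leaving out single libraries also cost calls: C3 without library 5 or 6, Vtn without library 8, Cfp without 5, 6, 8, 13 or 14, C1s without 5, 6, 7, 8, 14 or 15, and Cd59 without any library but 14. In the same comparison 9 of 10 hepatocyte markers were higher with isoflurane and 3 of 8 tested macrophage markers lower, and their part in these values was not tested.

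In septic livers, 6 of 31 members were higher with isoflurane, beside 10.6% of all genes, and 1 was lower, beside 8.66%. Cfd (0.55 ± 0.14), C1qc (0.43 ± 0.12), Cfi (0.39 ± 0.07), C2 (0.35 ± 0.10), C8g (0.33 ± 0.07) and Vtn (0.30 ± 0.07) were higher. C3ar1 was lower by 1.04 on the log2 scale (SE 0.30, adjusted p = 0.0414), with Propofol-Sepsis libraries at 2.94, 1.91, 3.26 and 2.77 CPM against 1.65 at most in Isoflurane-Sepsis. Without library 9, 11 or 12 no member passed the edgeR test, and without library 3 or 4 there were 3. Over all genes, leaving out 1 library gave 249 to 2867 calls. With scaling by library totals 2 members remained, 1 higher and 1 lower, beside 596 of all genes higher and 2170 lower. The median of all genes was then at -0.156. Of the 10 hepatocyte markers 4 were higher with isoflurane in septic livers, and their part in these values was not tested.

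**Figure D4:**
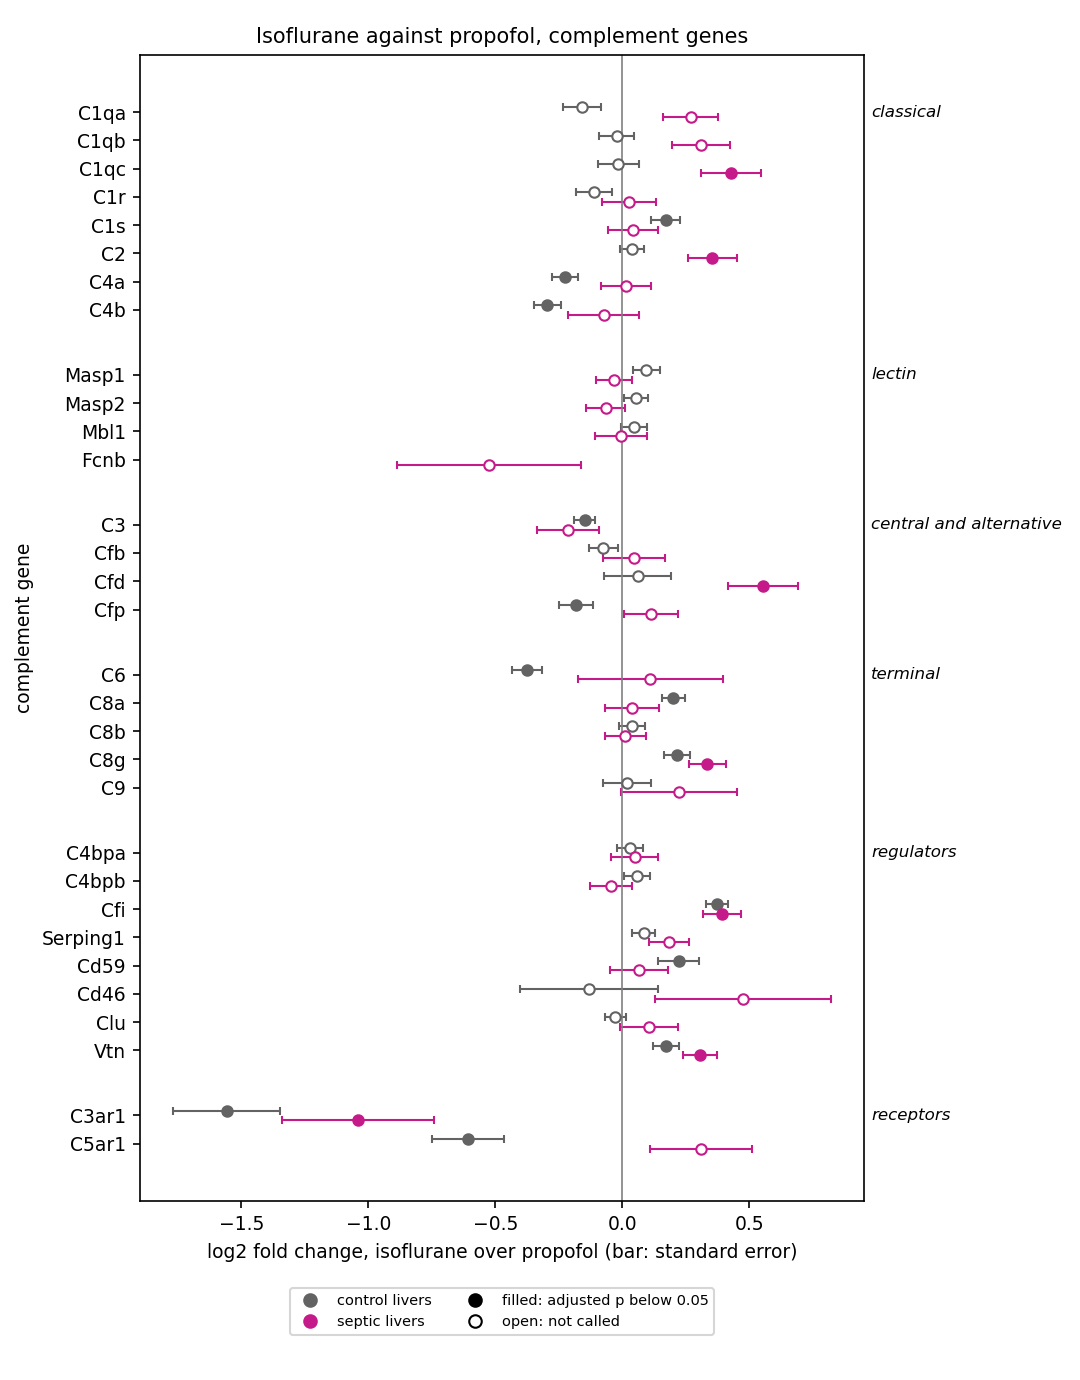
Log2 fold change of isoflurane over Propofol (horizontal axis) for each tested complement gene (vertical axis), in control livers (gray) and septic livers (magenta). Bars are standard errors over 4 libraries against 4, and filled points passed an adjusted p of 0.05. C3ar1 lies farthest to the left in both, at -1.56 and -1.04, and Cfi lies to the right in both.

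Further genes of the system outside the 38 were read from a list of 25, of which 21 were present and 19 tested in the sepsis comparisons. With isoflurane 4 were called higher and 3 lower, beside 25.7% and 24.4% of all genes, and with Propofol 6 higher and 5 lower, beside 20.4% and 21.7%. These counts do not set the list apart from all genes. Ptx3, a soluble pattern recognition protein that binds C1q, was 0.0990 to 0.188 CPM in Isoflurane-Control and 4.56 to 11.7 in Isoflurane-Sepsis, and at most 0.291 in Propofol-Control and 4.35 to 5.24 in Propofol-Sepsis. Its rise was 5.45 ± 0.40 and 5.42 ± 0.43 on the log2 scale, a size that depends on the few reads in controls. Control libraries had at most 8 reads with isoflurane and 5 with Propofol, so Ptx3 met the count limit only through sepsis libraries. Itgam, a chain of complement receptor 3 on neutrophils and macrophages, rose by 2.96 ± 0.32 with isoflurane and 1.45 ± 0.19 with Propofol, and Itgb2, its partner chain, by 0.83 ± 0.15 and 0.43 ± 0.09. Thbd, an endothelial protein that promotes the inactivation of C3b, rose by 1.96 ± 0.30 and 1.24 ± 0.13. Csmd1, a membrane regulator, fell by 1.59 ± 0.33 and 2.29 ± 0.47, with Propofol-Control library 15 at 52.5 CPM against 9.50 to 17.7 in the others. Cpn2, a subunit of the carboxypeptidase that inactivates the anaphylatoxins, fell by 0.38 ± 0.07 and 0.26 ± 0.07.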

How the data were processed

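For each of the 16 libraries the authors deposited counts, the whole number of reads per gene symbol, with no normalization. The libraries were polyadenylated, strand-keeping and single-end. The submitters' processing notes name STAR and build rn5, and the sources used here give no counting program or annotation. Entries that name no gene (21.61% to 25.39% of reads outside genes, 1.074% to 1.351% ambiguous) were left out. Reads on genes were 14199422 to 49937173 per library. The smallest chi-square per degree of freedom between libraries of a group was 3.369, so no library appeared to be deposited more than once within a group. Libraries of different groups were not compared in this way. Pairs were at 24.22 to 97.05 in Isoflurane-Sepsis and 3.369 to 12.21 in Isoflurane-Control. In Propofol-Sepsis they were at 7.628 to 44.93, and in Propofol-Control at 6.425 to 27.11. The Isoflurane-Sepsis pools were thus less alike than their controls, while each fit estimates 1 spread per gene for its groups together.

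Counts were tested with edgeR 4.0.16 (R 4.3.3; quasi-likelihood, TMM, filterByExpr with a minimum count of 10 and total of 15) in separate fits of 4 libraries against 4, the interaction over all 16, with Benjamini-Hochberg adjustment over all genes tested. SE is of the log2 fold change and SD is over libraries. The scripts were tested on simulated data. The exact permutation test is two-sided and can reach 0.0286 at the lowest. P-values set a difference between groups against the spread between pools.

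The members and lists were chosen with earlier results of these data known. In each role, the member with the smallest adjusted p in each sepsis comparison is given in all libraries (C4a, Masp1, Cfd, Cfp, C9, Serping1 and C5ar1), as would be any member called beyond 1 on the log2 scale without overlap in a sepsis comparison, called in the interaction or called in opposite directions in the sepsis comparisons, of which there were none. Other members were singled out after their values were seen. Alternatives were DESeq2 1.42.0, scaling by library totals or by RLE size factors, a limit of a mean CPM of 1 or no limit, all 16 libraries in 1 fit, and each library left out. Promoters were matched by symbol to RefSeq GRCr8 sequences and aligned with Biopython 1.88, with each motif searched on both strands of the 250 bases before the start. Searching the 50 bases after the start as well gave the same counts. Planned protein comparisons were not run, and a gene of the wider list is not reported here by name.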

Additional observations from a re-analysis of the deposited data

Results flagged for a closer look

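In 132 groups of 4 libraries (33 members in 4 groups), the highest or lowest library was compared with its nearest neighbor by Dixon's ratio, and 14 groups exceeded its 95% critical value, where chance gives about 1 in 20. Library 4 of Isoflurane-Sepsis was set apart by high values in C9 (4584 CPM), Cfb (2694 CPM), C1qb (68.87 CPM) and Cd55 (1.51 CPM). Library 10 of Propofol-Sepsis was high in C1r (749.9 CPM) and low in Masp2 (165.2 CPM), and library 9 of that group was low in Cfd (6.495 CPM). In Propofol-Control, library 14 was high in C2 (199.9 CPM) and in Masp1 (256.0 CPM), and library 13 was low in Mbl1 (122.0 CPM). Mbl2 accounted for 4 of the 14, each group having reads in a single library, at 0.09978 CPM in library 1, 0.1458 in library 8, 0.0608 in library 12 and 0.09521 in library 15.

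Of the complement genes outside the 38, 1 of 19 tested was called in the edgeR interaction, beside 1.66% of all genes higher and 1.06% lower. That gene was Cr1l, a membrane regulator of C3 and C4 fragments, at 0.285 on the log2 scale (SE 0.07, adjusted p = 0.0488). The call lay just under the threshold and was not followed through the alternative fits. Over all genes, interaction calls ranged from 54 to 1615 when 1 library was left out. Cr1l was not called with isoflurane (0.09, adjusted p = 0.28) and fell with Propofol (-0.20, adjusted p = 0.0127). With Propofol all 4 sepsis libraries, at 26.9 to 27.9 CPM, lay below the controls at 30.7 to 31.9.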

How the results depend on the processing

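None of the calls of members reversed direction in any of the alternatives run. Of the 14 calls with isoflurane, 8 held in every alternative (C4a, C5ar1, C9, Cd59, Clu, Masp1, Serping1 and Vtn), and of the 8 with Propofol, 5 did (C4a, C4b, C8g, C9 and Serping1). In controls 5 of 13 did (C3ar1, C4a, C4b, C5ar1 and Cfi), and in septic livers 0 of 7. Leaving out 1 library at a time gave 10 to 16 called members with isoflurane, 5 to 9 with Propofol (5 without library 14), 0 to 3 in the interaction (3 without library 1), 10 to 13 in controls and 0 to 7 in septic livers (0 without library 9, 11 or 12). Over all genes, those fits gave 4145 to 5668 calls with isoflurane and 3501 to 4291 with Propofol. They gave 54 to 1615 in the interaction and 3715 to 4321 in controls. DESeq2 called 3 in the interaction in place of 0, and over all genes 504 higher and 339 lower in place of 176 and 113. A single fit of all 16 libraries called 8 in controls in place of 13. Its calls over all genes were 1379 higher and 1413 lower in place of 2225 and 2243. Scaling by library totals called 2 in septic livers in place of 7. Over all genes it called 596 higher and 2170 lower in place of 1092 and 890. For these the cause was not tested. Over all genes, the calls in septic livers ranged from 249 to 2867 when 1 library was left out. No paired analysis was possible because the groups share no replicate number. Depth limits Mbl2, Cd55, Fcnb, Cd46 and C3ar1, which had few reads. Intervals were not derived from counts, and pools of 3 rats hide the spread between animals.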

Other observations

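Among the complement genes outside the 38, 5 of 18 tested were higher and 6 lower in control livers with isoflurane than with Propofol, beside 21.6% and 21.7% of all genes. Colec10, a collectin of the lectin pathway, was higher by 0.57 ± 0.10 on the log2 scale (adjusted p = 0.00135), and in septic livers by 1.04 ± 0.10 (adjusted p = 0.0022), with 32.0 to 42.0 CPM in Isoflurane-Sepsis and 16.6 to 17.95 in Propofol-Sepsis. It fell in sepsis with Propofol by 0.66 ± 0.11 (adjusted p = 0.00146). With isoflurane it was -0.17 ± 0.10 (adjusted p = 0.165), and its interaction was not called (0.47 ± 0.15, adjusted p = 0.09). Vsig4, a receptor of Kupffer cells for C3b, was lower in control livers by 0.53 on the log2 scale (adjusted p = 0.000663) and did not pass in septic livers (-0.52, adjusted p = 0.0531).

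Outside the leukocyte lists, 4 of 6 tested endothelial markers were lower in sepsis with isoflurane, beside 24.4% of all genes. Kdr was at -2.17, and the summed levels were 158 to 197 CPM in controls and 112 to 129 in sepsis. With Propofol 2 markers were lower and 1 higher, beside 21.7% and 20.4% of all genes, with sums of 183 to 224 and 151 to 159 CPM. Thbd, an endothelial gene, was higher in the same livers.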
